A study of Mus musculus with 6 samples.

Results

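The genes described here are 10 scavenger receptors and parts of the engulfment machinery, measured in RNA from mouse spinal cord microglia: Cd36, Msr1, Scarb1, Stab1, Gas6, Elmo1, Dock2, Rac2, Vav1 and Pld4. They were taken by name from the 55401 genes of the count table, and all 10 had enough counts to be tested, among 16248 tested genes. Microglia were drawn from spinal cords of mice aged 7 months with beads against CD11b, an integrin of myeloid cells. The controls were non-transgenic C57BL/6 mice (NTg), and the mutants, here ATXN2-Q33;TDP-43, were heterozygous double mutants with a knock-in of human ATXN2 coding for 33 glutamines together with human TDP-43. All mice were untreated. Every library held microglia pooled from 3 spinal cords, which makes 9 animals and 3 libraries a group, and single animals cannot be told apart. The promoter behind human TDP-43 is not given in the sources used here. Libraries are named by the number in their titles, 7, 9 and 11 for NTg and 8, 10 and 12 for the mutants.

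Microglia are the resident phagocytes of the central nervous system and clear dying cells, myelin debris and lipoproteins. Scavenger receptors such as CD36, MSR1, SCARB1 and stabilin-1 bind modified lipoproteins, lipids and other polyanionic or apoptotic ligands at the cell surface, and GAS6 bridges phosphatidylserine on dying cells to the receptor kinases TYRO3, AXL and MERTK. Inside the cell, ELMO scaffolds with DOCK proteins, and the VAV proteins, load Rac GTPases with GTP, and active Rac drives the branched actin that closes the phagocytic cup. PLD4 is an exonuclease of endolysosomes that degrades single-stranded nucleic acids. The comparison asks whether the RNA of these genes differs between the genotypes.

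None of the 10 members passed an adjusted p of 0.05 between the genotypes, and the libraries of the groups overlapped for every one of them. The log2 fold changes, mutant over NTg, ran from -0.24 for Cd36 to 0.12 for Scarb1, with 3 above 0 and 7 below. Their median was -0.04, beside 0.01 over all tested genes, of which 48% were below 0. By edgeR's quasi-likelihood test the adjusted p was 1.0 for each member, and 0% of the 16248 tested genes passed; 2.26% had an unadjusted p under 0.05, and no member did. Exact two-sided permutation tests of each member's log2 CPM gave p from 0.3 to 1.0. Groups did not overlap for 6.85% of all tested genes and for 0 of the 10 members. DESeq2 called 0.0431% of all tested genes (2.45% unadjusted) and the voom fit of limma 0% (1.79% unadjusted); 0 members were among them, adjusted or unadjusted. When libraries 7 and 8, 9 and 10, and 11 and 12, neighbours in sample code, were each treated as a block, 0.437% of all tested genes passed (8.62% unadjusted), again with 0 of the 10 members adjusted or unadjusted. The labels do not name these codes as pairs, but by a chi-square of the counts each of the 6 libraries was nearest to its neighbour in code, at 8.76, 10.7 and 6.10 per degree of freedom. Between neighbours Stab1 and Gas6 were higher in 3 of 3 mutants and Dock2 lower in 3 of 3, while the other 7 members were mixed. Some of these gaps were small, as for Stab1 at 292 CPM in NTg 9 and 298 CPM in mutant 10. The share of all tested genes with the same direction in all neighbours was not counted, so no shift is read from these counts. Read as folds, the 95% intervals of the 10 members lay between 0.613 and 1.37, so a 2-fold difference in either direction lay outside each of them.

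**Figure D1:**
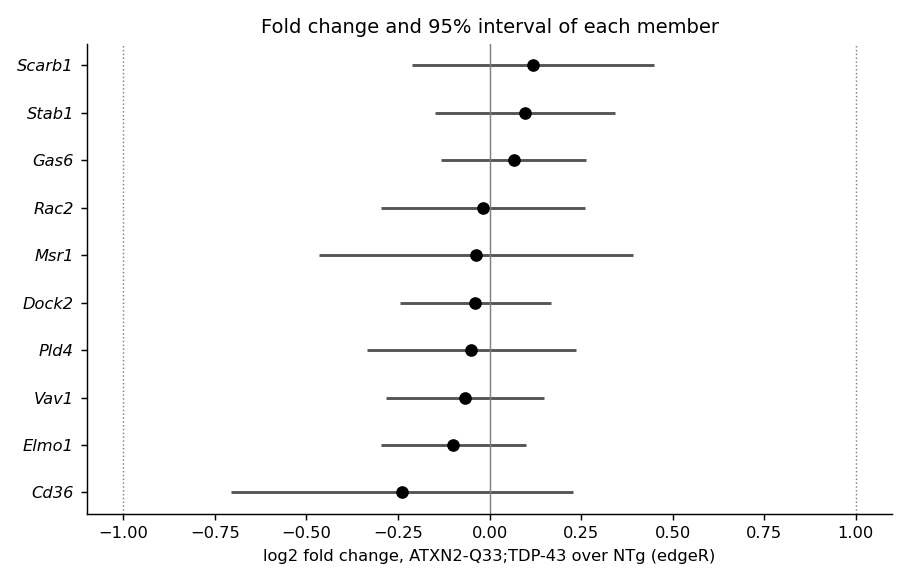
Log2 fold change of each member, ATXN2-Q33;TDP-43 over NTg (points), with its 95% interval (bars) from edgeR over 3 libraries a group; dotted lines mark a 2-fold difference. Each interval holds 0 and stays inside the dotted lines, and the widest, that of Cd36, runs from -0.71 to 0.23.

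Defining markers of microglia were high in all 6 libraries. The 12 microglial markers summed to 12243 to 17782 CPM (counts relative to the total of the library, scaled by TMM; the unit of all levels here), with P2ry12 at 599.95 to 834 CPM, whereas markers of T, NK and B cells summed to at most 5.64 CPM. Other cells of the cord were present unevenly: 12 endothelial markers summed to 139.97, 487 and 215 CPM (NTg 7, 9 and 11) and to 258, 503 and 136 CPM (mutants 8, 10 and 12). Monocyte markers, 8 in number, summed to 104, 123 and 120.1 CPM and to 227, 228 and 62.2 CPM in the same order. Neutrophil markers, 12 genes, summed to 1278, 765 and 991 CPM and to 2406, 1731 and 670.1 CPM, with Csf3r at 569 to 658 CPM. Oligodendrocyte markers, 10 genes, summed to 170 to 1676 CPM over the libraries. Neuronal markers, 8 genes, were the only 1 of 12 cell type sums without overlap, at 27.7 to 29.9 CPM in controls and 30.6 to 45.6 CPM in double mutants (exact permutation p = 0.1, the smallest possible). Of these 8 genes Map2 alone was without overlap, at 8.46, 13.3 and 8.71 CPM against 13.9, 24.7 and 13.5 CPM. As 12 sums were compared, no shift is read from this separation. NTg 9 and mutant 10 stood apart by high endothelial, mural and oligodendrocyte sums. Of the mouse genes of the genotype, Tardbp measured 93.3 to 96.4 CPM in controls and 88.6 to 104 CPM in double mutants. Atxn2 measured 94.1 to 96.0 CPM against 99.5 to 104 CPM, without overlap (log2 fold change 0.09, SE 0.08, edgeR adjusted p = 1.0), and the annotation counted lists mouse genes only. Total counts per library were 12553570 to 22854628. In bulk RNA fewer cells of a type and less RNA per cell cannot be told apart.

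Set in order by level per exon length (CPM per kilobase, kb), the members spanned a wide range in NTg microglia. Pld4 was highest at 141 ± 10.8 CPM per kb (SD, n = 3), followed by the guanine nucleotide exchange factors Vav1 at 101 ± 4.34 and Dock2 at 62.7 ± 2.90. Elmo1 stood at 35.6 ± 2.39, Gas6 at 30.5 ± 1.39, Stab1 at 29.9 ± 3.28 and Rac2 at 22.7 ± 1.46 CPM per kb. The classical scavenger receptors were far lower, with Cd36 at 5.0 ± 0.975, Scarb1 at 2.55 ± 0.260 and Msr1 at 1.46 ± 0.254 CPM per kb. Among tested genes Pld4 reached percentile 98.2 of level per length and Msr1 percentile 30.8. Neighbours in this order did not overlap between their NTg libraries, except Gas6 and Stab1. Lengths are those of all annotated exons of a gene merged, so a gene used mostly in a short form is placed too low.

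The promoters of the 4 members with the highest level per length are shown because they allow a look at the binding motif of PU.1, the ETS transcription factor that microglia need. RefSeq promoter windows (GRCm38.p6, the assembly of mm10) were matched for 7 of the 10 members, in 8 windows since Elmo1 has more than 1 start. Each runs from 250 bases before to 50 bases after the RefSeq start, printed 5′ to 3′ on the strand of the gene, with capitals marking GAGGAA, the core of that motif, or its reverse complement TTCCTC.
Pld4, chr12:112760405-112760704, plus strand: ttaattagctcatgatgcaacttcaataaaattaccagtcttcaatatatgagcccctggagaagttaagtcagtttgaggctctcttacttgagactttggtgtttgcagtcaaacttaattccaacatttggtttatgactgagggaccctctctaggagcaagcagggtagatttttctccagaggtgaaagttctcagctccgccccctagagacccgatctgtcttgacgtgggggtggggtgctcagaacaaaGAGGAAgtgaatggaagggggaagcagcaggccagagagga
Vav1, chr17:57278850-57279149, plus strand: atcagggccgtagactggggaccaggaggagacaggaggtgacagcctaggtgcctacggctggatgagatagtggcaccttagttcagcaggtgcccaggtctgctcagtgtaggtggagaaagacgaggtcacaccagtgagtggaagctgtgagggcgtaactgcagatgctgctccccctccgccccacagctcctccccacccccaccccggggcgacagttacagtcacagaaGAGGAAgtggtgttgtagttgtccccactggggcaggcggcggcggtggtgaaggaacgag
Dock2, chr11:34783856-34784155, minus strand: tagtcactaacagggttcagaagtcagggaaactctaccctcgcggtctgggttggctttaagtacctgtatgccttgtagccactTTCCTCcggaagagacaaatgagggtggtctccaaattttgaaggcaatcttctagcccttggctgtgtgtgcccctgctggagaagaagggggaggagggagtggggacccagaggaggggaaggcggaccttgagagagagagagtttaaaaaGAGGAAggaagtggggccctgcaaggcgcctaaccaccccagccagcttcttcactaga
Elmo1, chr13:20090257-20090556, plus strand: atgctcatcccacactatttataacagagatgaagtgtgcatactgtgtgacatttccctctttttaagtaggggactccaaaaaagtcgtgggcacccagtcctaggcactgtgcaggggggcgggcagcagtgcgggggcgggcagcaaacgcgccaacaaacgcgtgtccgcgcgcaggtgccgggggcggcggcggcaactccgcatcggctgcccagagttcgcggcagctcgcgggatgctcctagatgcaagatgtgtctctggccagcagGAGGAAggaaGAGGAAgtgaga

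The core GAGGAA, on either strand, was present in windows of 5 of the 7 members, these 4 and Stab1, and in 28.3% of 32851 promoter windows of the same length. The longer GAGGAAGT, which contains the core, was present for 3 of the 7 members, Pld4, Vav1 and Elmo1, and in 3.2% of all windows. It began 11 bases before the start of Vav1, 10 bases after that of Pld4 and 39 bases after that of Elmo1, while Dock2 held the core 9 bases before its start and, as TTCCTC, 164 bases before it. No match was found in the windows of Gas6 or Cd36, nor in the other window of Elmo1. The Cd36 window, 17835847 to 17836146 on the minus strand of chromosome 5, lies inside the annotated gene. Its annotated 5′ end is at 17888801, where no window was matched. Another motif searched, TATAAA, the TATA box, was present for 1 of the 7 members (Elmo1) and in 13.6% of all windows. A match describes letters only, and binding of PU.1 was not measured.

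Among the surface receptors, Cd36 (ENSMUSG00000002944.15, mm10 chromosome 5, 17781690 to 17888801), the class B receptor for oxidized lipoproteins and long-chain fatty acids, was measured at 15.1, 21.9 and 16.8 CPM (NTg 7, 9 and 11), against 18.5, 15.5 and 11.6 CPM (mutants 8, 10 and 12). NTg 9 was highest and mutant 12 lowest, a spread of 1.88-fold that was the widest of the 10 members, and the other libraries interleaved. Means were 17.95 ± 3.50 CPM for NTg and 15.2 ± 3.47 CPM for mutants (SD, n = 3 each), with a log2 fold change, SE and 95% interval of -0.24, 0.21 and -0.71 to 0.23. Only 188 to 371 fragments per library lay behind these values. Mutant 12, lowest in Cd36, also had the lowest monocyte and endothelial marker sums. Mutant 8 had a monocyte sum of 227 CPM with Cd36 above the mean over all libraries. NTg 9, highest in Cd36, had an endothelial sum of 487 CPM. Mutant 10 had the highest monocyte and endothelial sums, 228 and 503 CPM, with Cd36 below that mean. Monocytes and endothelial cells are known to express Cd36, and their part in these values was not tested.

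Scarb1 (ENSMUSG00000037936.15, chromosome 5, 125277087 to 125341094), the receptor for high-density lipoprotein, stood at 21.5, 24.0 and 19.6 CPM in the NTg libraries, in the order above, and at 21.0, 27.7 and 21.9 CPM in the mutant ones. Mutant 10 was highest and NTg 9 next, and these were the libraries with the highest endothelial sums, 503 and 487 CPM against 136 to 258 CPM in the other libraries. The part of endothelial RNA in the Scarb1 level was not tested. Scarb1 differed by 0.12 on the log2 scale (SE 0.15, 95% interval -0.21 to 0.45), which became -0.0146 without mutant 10 and 0.27 in the fit with the alignment covariate described with Elmo1. Scarb1 lies 3.46 megabases from Atxn2 on the same chromosome, and the insertion sites of the human sequences are not given in the sources used here.

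Msr1 (ENSMUSG00000025044.16, chromosome 8, 39581685 to 39642673), the class A receptor for modified low-density lipoprotein, was the scarcest member, with 99 to 244 fragments per library. NTg libraries measured 7.97, 8.76 and 11.1 CPM and mutant libraries 8.98, 8.48 and 9.71 CPM, so that all mutant values lay inside the NTg range. The difference was -0.04 on the log2 scale (SE 0.19, 95% interval -0.46 to 0.39), an interval of 0.725 to 1.31 as a fold. In the fit with the alignment covariate described with Elmo1, a fit that rests on NTg 11 alone among controls, the value was -0.29.

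Stab1 (ENSMUSG00000042286.13, chromosome 14, 31139013 to 31168641), which codes for stabilin-1, a large endocytic receptor also used as a marker of tissue macrophages, read 285, 292 and 346 CPM among NTg libraries against 337, 298 and 351 CPM among mutants. NTg 11 sat with the higher mutant libraries and mutant 10 with the lower NTg ones. Stab1 averaged 308 ± 33.7 CPM in controls and 329 ± 27.5 CPM in double mutants (SD, n = 3 each), 0.10 higher on the log2 scale (SE 0.11, 95% interval -0.15 to 0.34). Border macrophages, which also make Stab1, had marker sums over 10 genes of 129 to 155 CPM in controls and 119 to 169 CPM in double mutants, with Cd209f and Cd209g under a mean of 1 CPM. Stab1 was lowest in NTg 7 and the border macrophage sum in mutant 10. Both were below their means over the 6 libraries in NTg 7 and mutant 10, and above them in NTg 11 and mutant 8. In NTg 9 and mutant 12 they lay on opposite sides. The part of border macrophages in the Stab1 level was not tested. Stab2, the other stabilin, had 16 fragments in all 6 libraries together.

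Gas6 (ENSMUSG00000031451.6, chromosome 8, 13465374 to 13494490), the soluble bridge to the receptor kinases, was among the most even members with 76.0, 75.1 and 81.7 CPM in controls, against 82.5, 75.5 and 85.7 CPM in double mutants. Mutants 8 and 12 were the highest of the 6 libraries, and mutant 10 lay between NTg 7 and 9. Gas6 differed by 0.07 on the log2 scale (SE 0.09, 95% interval -0.13 to 0.26). Pros1, protein S, the other ligand of these kinases, averaged 163 ± 11.6 CPM in controls and 152 ± 24.4 CPM in double mutants (SD, n = 3 each). As a share of both ligands per exon length, Gas6 made 42.4%, 44.4% and 43.01% in NTg 7, 9 and 11 and 45.7%, 49.04% and 44.2% in mutants 8, 10 and 12. By an exact permutation test (two-sided) the difference of 3.02 percentage points had p = 0.2, or 0.9 adjusted over 9 shares, and 0.1 is the smallest p that 3 against 3 libraries allow. NTg 9 at 44.4% lay above mutant 12, so the shares overlapped.

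**Figure D2:**
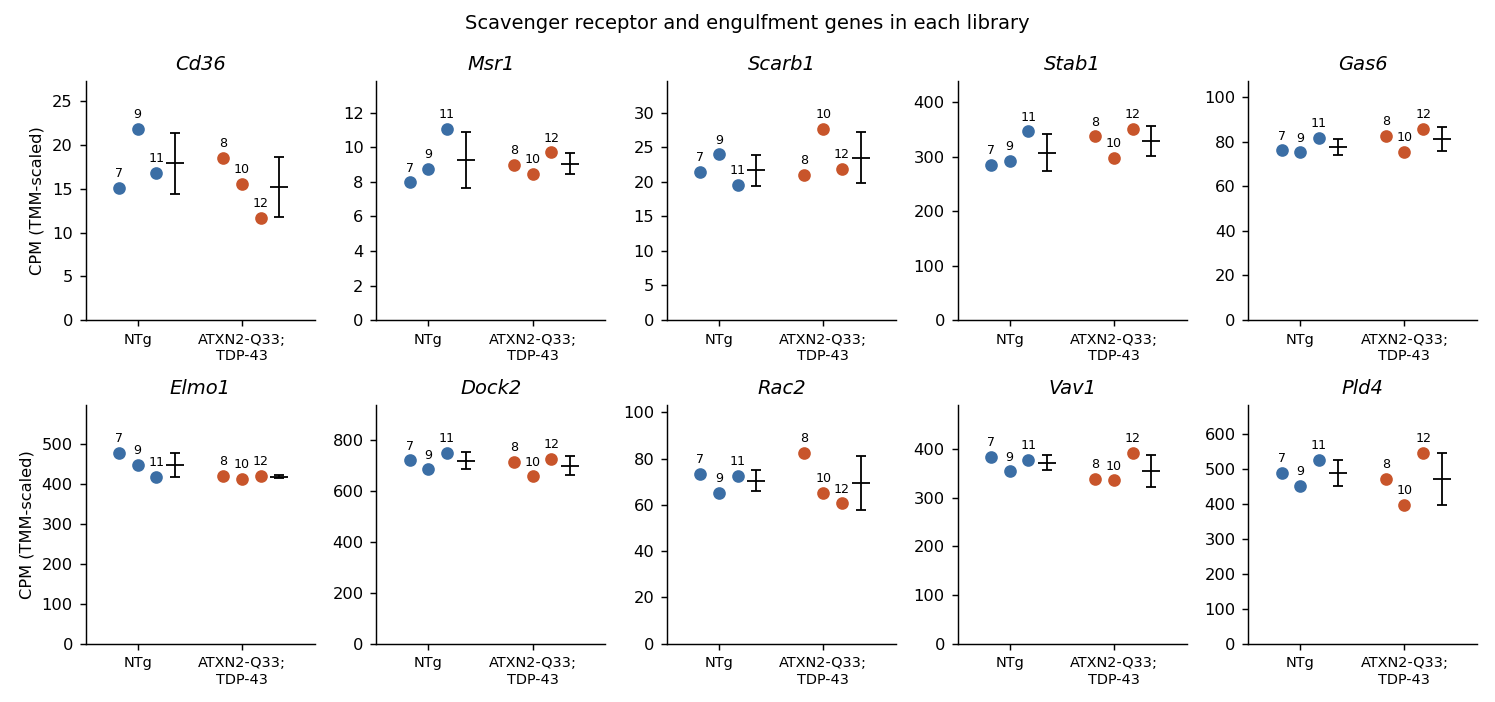
Level of each member in each library in TMM-scaled CPM, every axis from 0; points carry the library number, and the bar beside each group gives the mean and SD (n = 3). Groups overlap in each of the 10 panels, and Cd36 shows the widest spread, from 11.6 to 21.9 CPM.

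Turning to the cytoplasmic machinery, Elmo1 (ENSMUSG00000041112.17, chromosome 13, 20090596 to 20608353), the scaffold that joins DOCK proteins at the membrane, had 479, 448 and 419 CPM in controls 7, 9 and 11 and 421, 413 and 421 CPM in double mutants 8, 10 and 12. NTg 7 and 9 were above every mutant library and NTg 11 was among them. Its means of 448 ± 30.1 CPM and 419 ± 4.40 CPM (SD, n = 3 each) differed by -0.10 on the log2 scale (SE 0.09, 95% interval -0.30 to 0.10). The alignments of NTg 7 and 9 are named as combined in the column headers and the others are not, a difference that holds NTg libraries alone. Elmo1 differed by 0.000115 (log2) in a fit with that naming as covariate, a value that rests on NTg 11 as the only NTg library outside it. Elmo1 made 84.6 ± 0.430% of the ELMO family per exon length in NTg and 83.6 ± 0.739% in the mutants, and Elmo2 stood at 39.1 ± 2.41 and 40.1 ± 2.03 CPM in that order.

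Dock2 (ENSMUSG00000020143.15, chromosome 11, 34226815 to 34783892), the Rac exchange factor of blood cells, read 718, 683 and 749 CPM in its NTg libraries, and in the mutant ones 714, 655 and 724 CPM. Its lowest library was mutant 10 and its highest NTg 11, and the remaining mutant libraries lay within the NTg range. The change was -0.04 on the log2 scale (SE 0.09, 95% interval -0.24 to 0.17). Within DOCK1 to DOCK5, the exchange factors that bind ELMO, Dock2 made 66.7 ± 1.95% per exon length in NTg and 66.6 ± 1.58% in the mutants. Dock4 came next with 465 ± 25.8 and 435 ± 15.6 CPM, ahead of Dock1 with 94.99 ± 10.3 and 96.8 ± 4.12 CPM (SD, n = 3 each).

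Vav1 (ENSMUSG00000034116.17, chromosome 17, 57279100 to 57328031), the exchange factor of blood cells that acts after tyrosine phosphorylation, stood at 385, 354 and 378 CPM across controls and at 338, 336 and 393 CPM across double mutants. Mutants 8 and 10 lay below all NTg libraries and mutant 12 above all of them. On the log2 scale Vav1 differed by -0.07 (SE 0.10, 95% interval -0.28 to 0.15). Vav1 accounted for 76.5 ± 1.68% of VAV family RNA per exon length in NTg and 74.7 ± 1.62% in the mutants. Vav2 held most of the rest, at 210 ± 24.4 and 219 ± 26.5 CPM.

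Rac2 (ENSMUSG00000033220.7, chromosome 15, 78559167 to 78572783), the Rac GTPase of blood cells and a part of the phagocyte oxidase, came to 73.4, 65.2 and 72.6 CPM in the NTg libraries against 82.6, 65.3 and 60.6 CPM in the mutant libraries. The highest and the lowest library were both mutants, 8 and 12. The means, 70.4 ± 4.54 CPM for NTg and 69.5 ± 11.6 CPM for mutants (SD, n = 3 each), lay -0.02 apart in log2 (SE 0.12, 95% interval -0.30 to 0.26). Without mutant 8 the log2 difference was -0.16, and without mutant 12 it was 0.07. Neutrophils, rich in Rac2, had marker sums over 12 genes of 2406 CPM in mutant 8, the highest, and 670.1 CPM in mutant 12, the lowest, of which Csf3r gave 658 and 610.2 CPM. Mutant 10 had the next highest sum, 1731 CPM, with Rac2 at 65.3 CPM, below the NTg mean. Their part in the Rac2 level was not tested. Rac2 ranked between Rac1 and Rac3 in these cells, with Rac3 at 4.15 ± 0.673 CPM in NTg and 3.49 ± 0.647 CPM in mutants. The Rac2 share of Rac family RNA per exon length was 27.1%, 26.8% and 27.3% in NTg and 30.8%, 27.6% and 23.7% in mutants 8, 10 and 12. Rac1, the Rac found in most tissues, made up most of the rest at 259.7 ± 16.97 CPM in NTg libraries and 255 ± 15.2 CPM in mutant libraries. The mean shares differed by 0.26 percentage points, within a spread of 3.58 among the mutants.

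Pld4 (ENSMUSG00000052160.7, chromosome 12, 112760655 to 112768990), the endolysosomal exonuclease, had 487, 451 and 525 CPM in controls and 471, 396 and 546 CPM in double mutants, libraries in the order used above. Mutant 12 was highest and mutant 10 lowest, so the mutants enclosed the NTg range. Pld4 differed by -0.05 in log2 (SE 0.13, 95% interval -0.33 to 0.24). The 6 libraries fell in the same order by Pld4 as by the microglial marker sum, which ran from 12243 CPM in mutant 10 to 17782 CPM in mutant 12. Whether the Pld4 spread follows the share of microglial RNA was not tested. Pld3, the paralog with the same activity, stood at 99.7 ± 8.49 and 96.7 ± 13.5 CPM, and Pld4 made 80.5 ± 0.139% of the pair per exon length in NTg and 80.4 ± 0.322% in the mutants. That share moved by less than 1 percentage point over the 6 libraries, from 80.1% to 80.7%, while Pld4 itself spanned 1.38-fold.

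**Figure D3:**
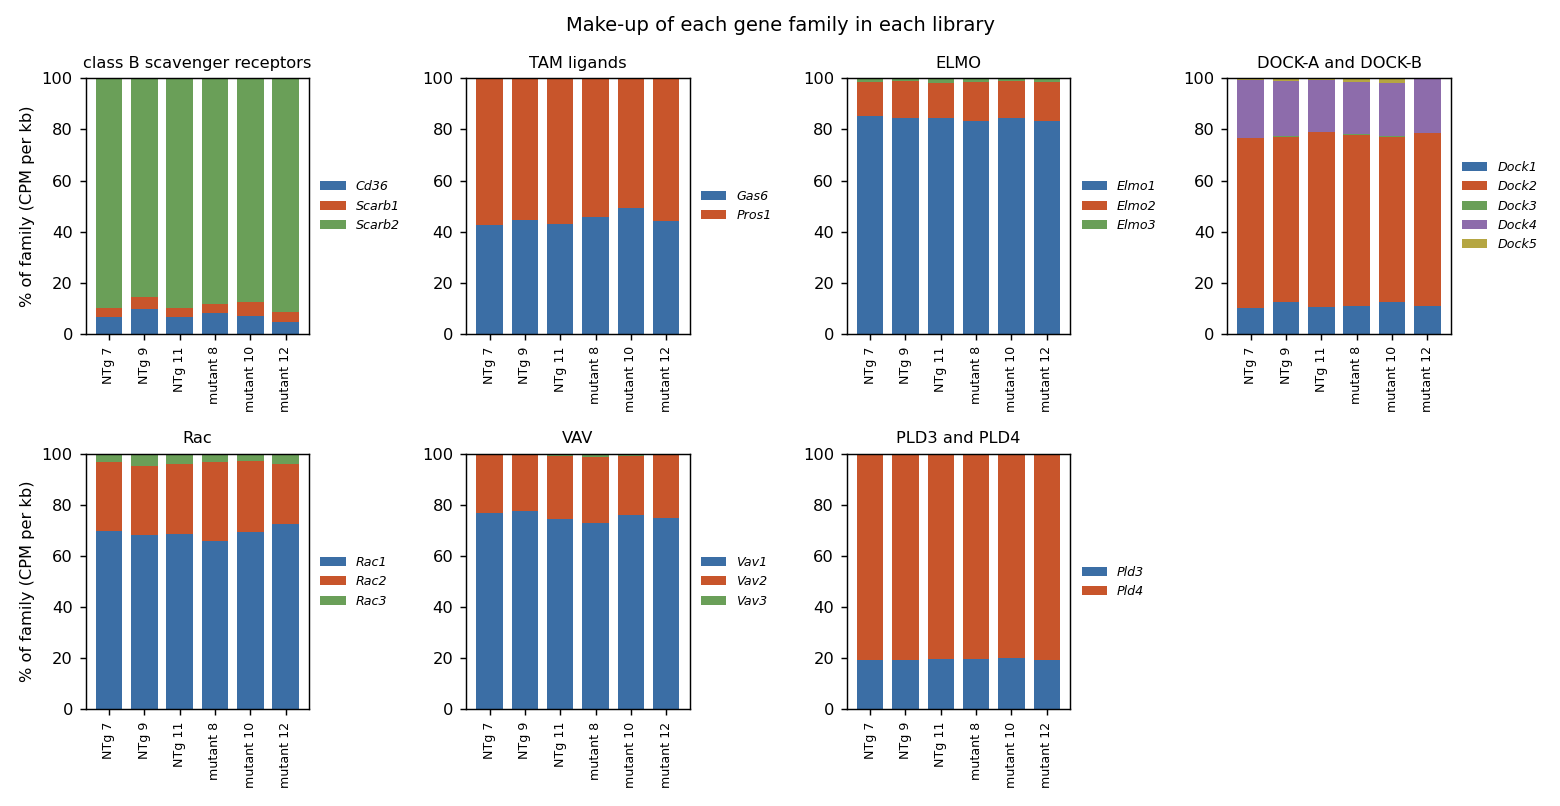
Share of each gene in its family within each library, as percent of the family's CPM per kb of exon; mutant means ATXN2-Q33;TDP-43, and TAM ligands are the ligands of TYRO3, AXL and MERTK. Scarb2 fills most of the class B receptors, Rac1 most of the Rac family, and Dock2, Elmo1, Vav1 and Pld4 most of theirs in each of the 6 libraries, while Cd36 runs from 4.64% to 9.83% and Rac2 from 23.7% to 30.8%.

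The family shares needed no scaling between libraries, and 9 were tested. With 3 against 3 libraries the exact permutation test gives no p below 0.1, so no share could pass the threshold. This test therefore cannot decide whether the shares differ between the genotypes, and only their values and overlap are described. Exact two-sided permutation p-values ran from 0.2 for Gas6 to 1, adjusted 0.9 to 1 over the 9 shares, and the groups overlapped for each. In the class B family Scarb2, a receptor of lysosomal membranes, was the main gene at 368 ± 32.8 CPM (NTg) and 368 ± 30.7 CPM (mutants). Cd36 made 7.63 ± 1.91% and 6.52 ± 1.69% of that family per exon length, and Scarb1 3.89 ± 0.643% and 4.25 ± 0.874% (SD, n = 3 each). Reads with several alignments were not counted under the recorded options, so genes with near-identical copies are under-counted in these shares.

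How the members varied together was read from each library's deviation from the mean over all 6. Mutant 10 was the lowest library for 4 members, Elmo1, Dock2, Vav1 and Pld4, and mutant 12 the highest for 4, Stab1, Gas6, Vav1 and Pld4. The summed level of the 10 members was 2548, 2422 and 2619 CPM over the controls and 2495, 2292 and 2625 CPM over the double mutants, so the lowest and the highest sums were both in mutants. Mutant 10 also had the lowest microglial marker sum and the highest endothelial one, and it was the highest library for Scarb1. Whether these sums bear on the levels of the members was not tested. The coefficient of variation within a group was 4.57% and 6.45% for Gas6 and 4.62% and 5.32% for Dock2, in NTg and mutants in that order, against 19.5% and 22.7% for Cd36.

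**Figure D4:**
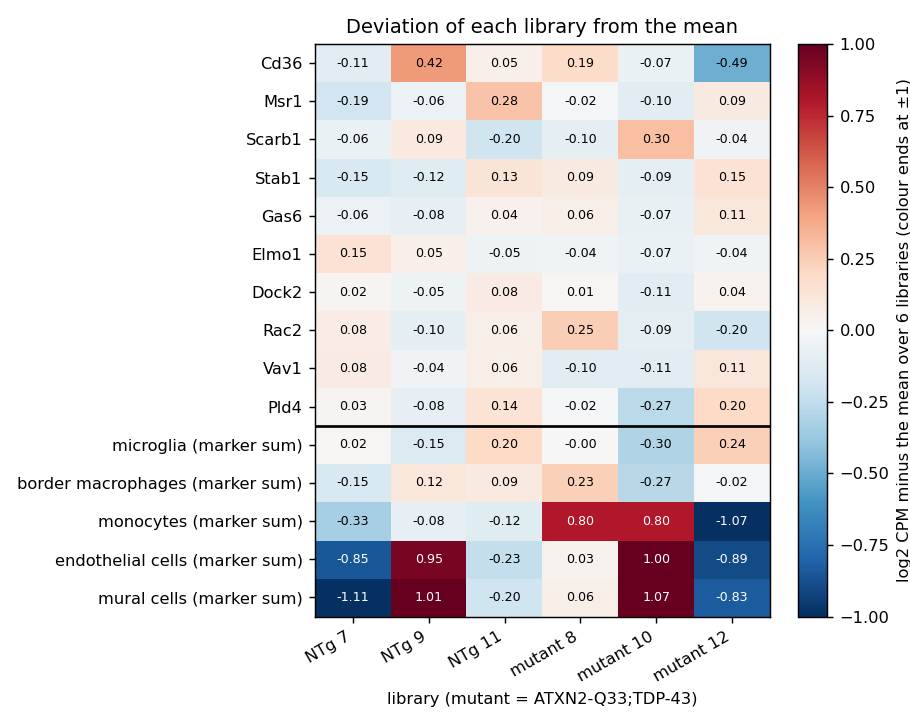
Deviation of each library (columns) from the mean log2 CPM over the 6 libraries, for the 10 members (upper rows) and for summed markers of 5 cell types (lower rows); red is above the mean and blue below. Most cells of the members lie near 0, whereas the endothelial sums of NTg 9 and mutant 10 lie 0.949 and 0.996 above the mean and Pld4 has the sign of the microglial sum in every library.

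Other genes of the pathway were read from 6 lists of 88 genes in all, 79 of which could be tested. Of the 79, 0 were called higher and 0 lower by edgeR, and 2 had an unadjusted p under 0.05, beside 2.26% of all tested genes. DESeq2 and voom each called 0, and 1 unadjusted, Axl, beside 2.45% and 1.79% of all tested genes unadjusted. The block of neighbouring codes called 0, and 6 unadjusted, beside 8.62% of all tested genes unadjusted. Groups were without overlap for 4 of the 79 (5.06%), beside 6.85% of all tested genes. Those 4 were Axl, Olr1, Cd47 and Nckap1l, of which Cd47 was named after its values were seen.

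Of 17 other scavenger receptors 12 were tested; 7 fold changes were positive and 5 negative, and their median was 0.01. Olr1, which codes for LOX-1, a lectin-like receptor for oxidized lipoprotein, measured 28.9, 24.0 and 21.4 CPM across NTg libraries and 18.6, 21.0 and 19.8 CPM across mutants. Every mutant library was below every NTg library, with a log2 difference of -0.32 (SE 0.14, edgeR unadjusted p = 0.0474, adjusted p = 1.0). An exact permutation test gave p = 0.1, the smallest possible. Cxcl16, a membrane chemokine that takes up oxidized lipoprotein, had -0.18 (SE 0.16). The 5 genes left untested, Marco, Scara3, Scara5, Stab2 and Cd5l, had 3 to 25 fragments each over the 6 libraries.

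Bridging molecules, their receptors and brakes on uptake had 22 of 24 genes tested, 8 positive and 14 negative, with a median of -0.04. Axl, a receptor of GAS6, measured 124, 131 and 106 CPM in control libraries, and 104, 97.2 and 95.5 CPM in double mutants. The groups were separate by a narrow gap, between NTg 11 and mutant 8, and the log2 fold change was -0.28 (SE 0.10, unadjusted p = 0.0189, edgeR adjusted p = 1.0). P2ry6, a receptor for UDP that triggers phagocytosis, had -0.13 (SE 0.10). Cd47, the signal that holds back engulfment, had 0.09 (SE 0.08).

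The 19 other ELMO, DOCK, Rac and VAV genes and partners, all tested, had 9 positive and 10 negative values and a median of -0.02. Crk, an adaptor upstream of DOCK proteins, averaged 121 ± 3.87 CPM against 107 ± 12.5 CPM in mutants (log2 fold change -0.18, SE 0.10), and Vav3 4.40 ± 1.51 and 6.32 ± 3.37 CPM (0.51, SE 0.43; SD, n = 3 each). The 18 genes of actin branching lay within a narrow band, from -0.09 to 0.05, with a median of -0.03. Of these 14 were negative, beside 48% of all tested genes, and without mutant 10 the median was 0.0132. Wipf1, which binds the WASP protein, had -0.09 (SE 0.11), and Nckap1l, the blood cell subunit of the WAVE complex, had -0.06 (SE 0.08) with values of 605, 602 and 584 CPM among controls and 576, 558 and 583 CPM among double mutants, a gap of under 2 CPM.

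The 5 genes of the phagocyte oxidase had a median of 0.01, with Cybb, the catalytic subunit, at 97.9, 76.4 and 78.5 CPM among controls and 128, 109.9 and 66.2 CPM among double mutants (log2 fold change 0.27, SE 0.25). Cybb was high in mutants 8 and 10 and lowest in mutant 12, as were the monocyte marker sums given above. Its order over the 6 libraries was that of the neutrophil marker sum, from 2406 CPM in mutant 8 to 670.1 CPM in mutant 12. The part of monocytes and of neutrophils was not tested. Ncf4, a cytosolic subunit, had 0.04 (SE 0.09). Of the phospholipase D paralogs 3 of 5 were tested, Pld1, Pld2 and Pld3, all with negative values and a median of -0.04; Pld2 had -0.11 (SE 0.10) and Pld3 -0.04 (SE 0.12), while Pld5 and Pld6 had 12 and 9 fragments in all.

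**Figure D5:**
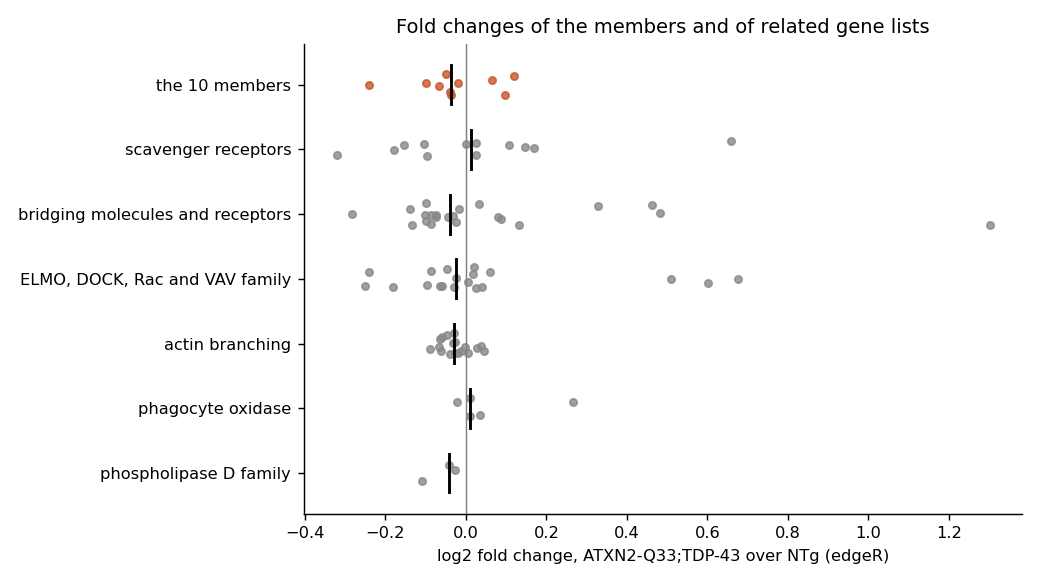
Log2 fold changes, ATXN2-Q33;TDP-43 over NTg, of the 10 members and of the tested genes of 6 related lists (points, 1 per gene), with the median of each list as a black bar. Medians lie between -0.04 and 0.01, and the point farthest to the right is Anxa1, at 1.30 (SE 1.095). Anxa1 was named after its values were seen, and ran from 57.4 CPM in mutant 8 to 2.91 CPM in mutant 12. Its order over the libraries was that of the neutrophil marker sum, and the part of neutrophils was not tested.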

How the data were processed

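RNA of 6 libraries of spinal cord microglia, 3 per genotype, was depleted of ribosomal RNA and prepared with a stranded kit for low input, per the labels' protocols. The deposited values are raw fragment counts per gene made by the authors with featureCounts 1.6.1 (paired fragments, strand setting 2, GENCODE vM25 on mm10; a fragment over several genes counts for each), per the file headers; no member shared an exon with another gene on its strand. TopHat2 alignments and Trim Galore 0.4.1 are named in the submitters' processing notes. Another 6 columns of per-sample values in the table belong to none of these libraries and were set aside. Gene symbols were matched by Ensembl identifier for 55141 of 55401 genes. Exon lengths are the deposited merged lengths in bases.

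Genes were filtered with filterByExpr (minimum count 10) and fitted with edgeR 4.0.16 in R 4.3.3 (TMM, robust quasi-likelihood fit, Benjamini-Hochberg adjustment over 16248 genes, threshold 0.05). Steps were tested on simulated data. Alternatives used DESeq2 1.42.0 and voom of limma 3.58.1. Exact permutation tests over libraries were two-sided, on log2 CPM with a pseudocount of 0.5 for levels and on percent shares for families. Pairs of libraries differed by a chi-square of 6.10 to 33.6 per degree of freedom, more than sampling noise, so each counted as 1 replicate. All members were named; of each other list, the 2 genes with the smallest p were named where none passed. The members and lists were chosen with earlier results of these data known.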

Additional observations from a re-analysis of the deposited data

How the results depend on the processing

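Over 14 other settings, which changed the test, normalization, filter, covariate or block, or left out 1 library, no member passed the threshold in any; the lowest adjusted p of a member was 0.675, for Elmo1 with neighbouring sample codes as a block in edgeR. Of 140 member values, 127 kept the sign of the fold change and 13 did not. With the combined alignments as a covariate the log2 fold changes of Stab1, Gas6 and Elmo1 were -0.0745, -0.00758 and 0.000115, and those of Msr1, Scarb1, Pld4, Dock2 and Rac2 moved without a change of sign to -0.29, 0.27, -0.16, -0.10 and -0.06, and that of Cd36 to -0.15. Leaving out each library in turn gave -0.13 to 0.12 for Msr1, -0.0146 to 0.20 for Scarb1, -0.0742 to 0.0039 for Dock2, -0.16 to 0.0721 for Rac2 and -0.17 to 0.0602 for Pld4. The cause of these changes of sign was not tested. Cd36 and Vav1 kept their sign under all 14 settings, with leave-one-out ranges of -0.40 to -0.08 and -0.14 to -0.03. List medians took both signs over the leave-one-out fits, except for the phagocyte oxidase (0.0130 to 0.0897). They ran from -0.0751 to 0.0106 for the members, -0.126 to 0.0447 for scavenger receptors and -0.0757 to 0.0335 for bridging molecules. For the ELMO, DOCK, Rac and VAV list they ran from -0.0673 to 0.0204. Actin branching had -0.0559 to 0.0132 and the phospholipase D family -0.148 to 0.0528.

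The count of all genes past the threshold, 0 in edgeR, was 7 with DESeq2, 6 without a filter, 71 with the block of neighbouring codes, which the labels do not name as pairs, and 0 to 2 when 1 library was left out, with 2 when that was mutant 12; the cause was not tested. Shares without exon length turned the Dock2 difference from -0.11 to 0.33 percentage points. Leaving out 1 library gave -0.14 to 0.69 points for Scarb1, -1.08 to 0.88 for Dock2, -1.47 to 2.10 for Rac2, -0.25 to 0.0659 for Pld4 and -0.0304 to 0.0230 for Stab1. The groups share no replicate number, and the labels give no pairing. With 3 libraries a group, small differences were not detectable. The intervals given, widest for Cd36 and Msr1, are for single genes without adjustment. A difference whose interval leaves out 0 can still miss the adjusted threshold, as that of Axl did (95% interval -0.51 to -0.06).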
